A study of Mus musculus with 9 samples.

Results

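The genes described here are 7 transcription factors that divide neural progenitors into dorsoventral domains, Dbx1, Pax6, Nkx2-2, Nkx6-1, Nkx6-2, Olig1 and Olig2, measured in the embryonic mouse hypothalamus. They were found by symbol, and all 7 were among the 38195 symbols of the deposited table. The list was selected on family membership together with a measured value, since Dbx1 was taken as the strongest ventricular gene against the lateral mantle zone. That contrast is therefore given for these genes as values only, with no test.

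All libraries came from hypothalamus of CD-1 embryos, an outbred mouse strain, at embryonic stage E12.5, with no genetic change or treatment named in the labels. The 3 groups were the ventricular zone, which lines the ventricle, the medial mantle zone beside it, and the lateral mantle zone farthest out, each microdissected from coronal vibratome slices and each with 3 mRNA libraries. The labels do not state whether replicates are separate embryos or pools, nor does any label name a litter, so a p-value reflects only the spread between these libraries. The deposited unit was FPKM, fragments scaled to transcript length and library size, which is scaled for gene length and can be compared between genes.

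In the neural tube, Sonic hedgehog released from ventral cells acts on dividing progenitors and sets up bands that each express their own set of transcription factors. Factors repressed by the signal, such as Pax6 and Dbx1, and factors induced by it, such as Nkx2-2, Nkx6-1, Nkx6-2 and Olig2, repress each other and sharpen the borders between bands. In the hypothalamus the same families are used again, and Dbx1 is needed there for some neurons of the lateral and arcuate nuclei that control feeding.

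The data showed 4 patterns among the 7 genes. Dbx1 and Olig2 were highest at the ventricle and lowest laterally, Nkx2-2 was highest in the medial mantle zone, Pax6 varied more within zones than between them, and Nkx6-1, Nkx6-2 and Olig1 were at most 13.0 FPKM in any library. Between the medial and lateral mantle zones Dbx1, Nkx2-2 and Olig2 passed the test, all 3 higher medially, where 4.12% of the 14004 tested genes passed. Between the ventricular and medial mantle zones 0 of the 7 passed, as did 0 of all 14004 tested genes. Dbx1 had the largest difference of the 7.

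The promoters of 3 of these genes are shown because they stand for the main patterns, Dbx1 and Olig2 falling from the ventricle outward and Nkx2-2 peaking medially. Each is the RefSeq window on GRCm38.p6 from 250 bases before to 50 bases after the start, written 5′ to 3′ on the gene's own strand. Dbx1 lies at chr7:49636786-49637085 on the minus strand, Nkx2-2 at chr2:147186353-147186652 on the minus strand and Olig2 at chr16:91225300-91225599 on the plus strand. Capitals mark matches on either strand to the TATA box (TATAAA), the CCAAT box (CCAAT) and the E-box of bHLH factors (CANNTG).
Dbx1: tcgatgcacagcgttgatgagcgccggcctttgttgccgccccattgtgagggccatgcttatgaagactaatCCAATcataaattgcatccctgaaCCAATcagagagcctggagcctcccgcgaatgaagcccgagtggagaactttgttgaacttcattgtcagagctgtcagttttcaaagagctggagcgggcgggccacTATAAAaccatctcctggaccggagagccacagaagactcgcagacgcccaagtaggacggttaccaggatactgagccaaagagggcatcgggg
Olig2: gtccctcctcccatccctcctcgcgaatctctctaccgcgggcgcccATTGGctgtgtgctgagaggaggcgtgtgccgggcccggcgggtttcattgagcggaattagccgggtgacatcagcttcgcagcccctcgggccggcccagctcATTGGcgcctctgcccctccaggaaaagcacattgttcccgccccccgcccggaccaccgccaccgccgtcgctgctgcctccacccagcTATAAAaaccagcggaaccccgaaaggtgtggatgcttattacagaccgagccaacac
Nkx2-2: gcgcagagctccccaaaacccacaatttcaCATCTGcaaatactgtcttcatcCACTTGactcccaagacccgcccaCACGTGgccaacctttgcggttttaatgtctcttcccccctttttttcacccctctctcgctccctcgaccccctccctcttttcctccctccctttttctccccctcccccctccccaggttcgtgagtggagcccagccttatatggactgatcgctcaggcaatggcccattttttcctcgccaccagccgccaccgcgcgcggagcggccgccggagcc

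Dbx1 and Olig2 each held 1 TATA box and 2 CCAAT boxes and no E-box, while Nkx2-2 held 3 E-boxes and neither of the others. Of all 32851 mouse promoters of this length, 13.6% hold a TATA box match, 37.4% a CCAAT box match and 72.3% an E-box match. The Dbx1 TATA box lay 45 to 40 bases before the start and that of Olig2 8 to 3 bases before it. None of the 3 held a homeodomain core (TAATTA, in 5.29% of promoters) or the Gli core ACCACCCA (in 1.48%). RefSeq promoters were matched for 6 of the 7 genes, Olig1 being the other. Nkx6-1 and Nkx6-2 had 67.3% and 66.7% GC, against a median of 52.7% over all promoters, and 54% in Dbx1. These matches are a description of letters, chosen after the sequences were seen, and show no binding.

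Library depth touches these genes directly. Judged from the size of the smallest steps in the deposited values, 7 libraries held about 4425884 to 8790225 fragments, whereas ventricular replicate 3 held about 260615 and medial replicate 3 about 537032. This is an estimate and not a count, since 63.8% to 69.3% of the low values lay no farther than 0.1 from whole steps. Known markers matched the labels in part: the summed level of 10 progenitor markers was 1000 to 2166 FPKM in ventricular, 962 to 1122 in the medial and 65.4 to 129 in the lateral libraries. Summed over 9 neuron markers the level was 534 to 1431, 1412 to 1647 and 1921 to 2263 FPKM in the same order, with the 1431 in ventricular replicate 2, above the lowest medial library. The hypothalamic gene Nkx2-1 was present in every library, and Rax, an early hypothalamic factor, was listed at 0 in all 3 lateral libraries. In such bulk samples, fewer cells of a type and less RNA per cell cannot be told apart.

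Dbx1 encodes a homeobox factor of the intermediate progenitor domain from which the V0 interneurons of the spinal cord arise. The gene (ENSMUSG00000030507.6) occupies chromosome 7 from 49631499 to 49636849 on the minus strand of GRCm38, the build called mm10. Ventricular replicates 1, 2 and 3 held 124, 74.0 and 181 FPKM of Dbx1, and medial replicates held 23.0, 21.6 and 16.2 FPKM. In the lateral zone it was listed at 0 in replicate 1 and was 0.0694 and 0.109 FPKM in replicates 2 and 3. The 3 zones did not overlap, and the highest medial library was far below the lowest ventricular one. Each of the nonzero lateral values corresponded to about 1 fragment (1.01 in both), so the lateral level is at the limit of what these libraries can detect.

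**Figure D1:**
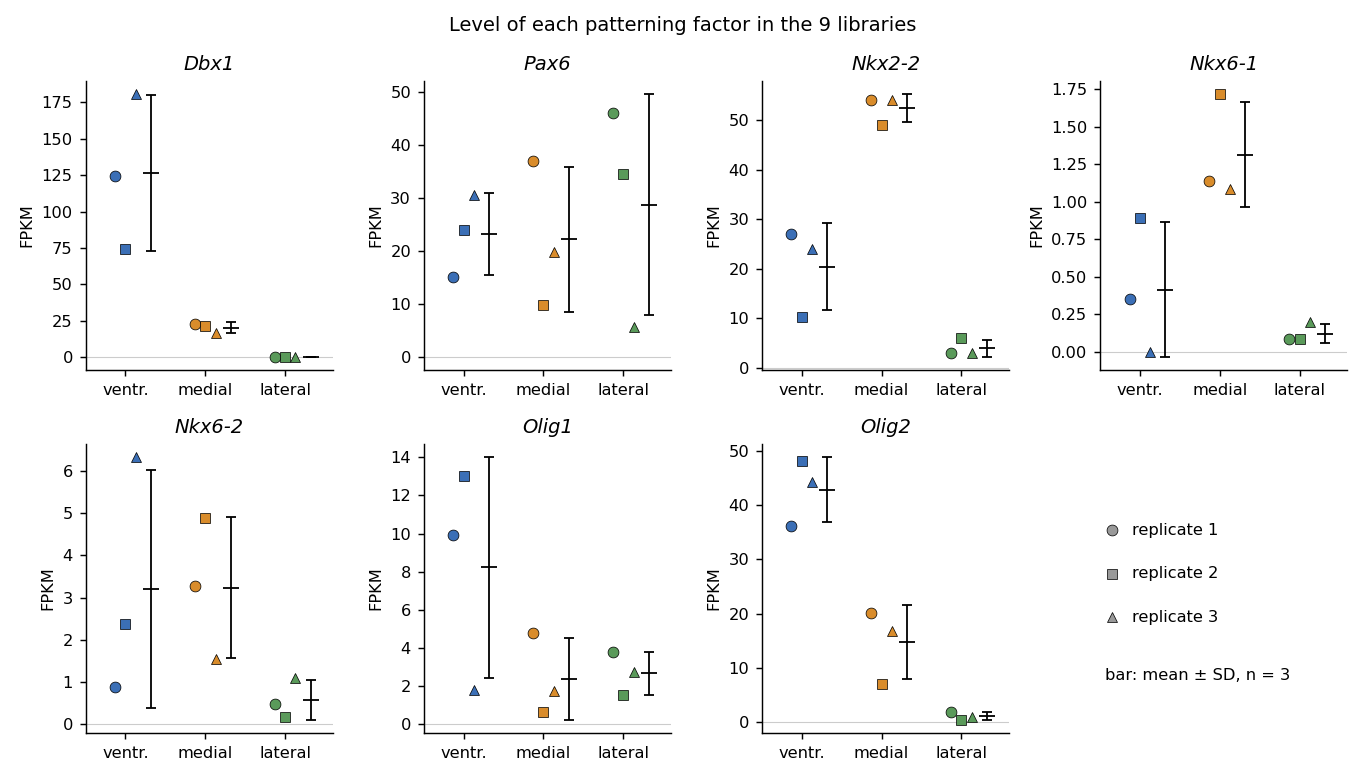
FPKM of the 7 patterning factors in every library, by zone (ventr., ventricular; medial and lateral, mantle zones), with the mean ± SD of 3 libraries beside the points and a separate linear axis per gene. Dbx1 and Olig2 descend from the ventricular to the lateral zone, Nkx2-2 peaks in the medial zone at 49.1 to 54.0 FPKM, and the zones overlap for Pax6 and Olig1.

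From the medial to the lateral mantle zone Dbx1 fell from 20.3 ± 3.58 to 0.0595 ± 0.0552 FPKM (SD, n = 3). The medial minus lateral difference was 4.32 ± 0.31 on the log2(FPKM + 1) scale (SE; limma adjusted p = 0.000365), and it passed in all 20 alternative settings, with adjusted p from 2.47e-07 to 0.00464. From the ventricular to the medial zone the mean went from 126 ± 53.4 to 20.3 ± 3.58 FPKM, a 6.23-fold ratio of means, with a log2 difference of 2.50 ± 0.31. All 3 ventricular libraries were above all 3 medial ones, and 14.7% of all tested genes showed no overlap between these zones, in either direction. The difference missed the threshold (limma adjusted p = 0.0624). It passed without ventricular replicate 2 (2.84, adjusted p = 0.00977), with quantile normalization (0.0431), with trimmed mean scaling (0.0456) and with array weights (0.000222), and the range over the alternatives was 0.000222 to 0.386. Both contrasts share libraries with the one on which Dbx1 was chosen, whose log2 difference was 6.82 between the ventricular and lateral zones.

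Olig2 encodes a bHLH factor that marks the motor neuron progenitor domain and later directs oligodendrocyte formation. The gene (ENSMUSG00000039830.9) is on chromosome 16 from 91225457 to 91228677, plus strand. Olig2 stood at 36.2, 48.1 and 44.2 FPKM at the ventricle, at 20.1, 7.02 and 16.8 medially and at 1.82, 0.470 and 1.02 laterally, by replicate. The zones followed the same order as for Dbx1 and did not overlap, but the spread was narrower at the ventricle and wider in the medial zone. The medial minus lateral difference was 2.83 ± 0.38 (limma adjusted p = 0.00484) and passed in all 20 alternatives (0.000698 to 0.0281). The ventricular minus medial difference of 1.59 ± 0.38 did not pass (adjusted p = 0.325), though it did with array weights (0.0176).

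Olig1, the paralog of Olig2, acts mainly in oligodendrocyte maturation. It starts 41.1 kb downstream on the same strand, at 91269772 to 91271933 (ENSMUSG00000046160.6). Olig1 stood at 9.92, 13.0 and 1.79 FPKM at the ventricle, at 4.78, 0.651 and 1.73 medially and at 3.79, 1.53 and 2.72 laterally. All 3 zones overlapped. Ventricular replicate 3, the lowest of its zone, rested on about 1 fragment (1.01) and medial replicate 3 on about 2 (2.01), so both carry large counting error. The lowest medial value, in replicate 2, rested on about 9.09 fragments.

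Neither difference of Olig1 passed, at 1.34 ± 0.65 for ventricular minus medial (limma adjusted p = 0.437) and -0.26 ± 0.65 for medial minus lateral (adjusted p = 0.859). The first passed with array weights (0.0234). Olig1 divided by Olig2 was 2.08, 3.26 and 2.68 in the lateral libraries, so Olig1 was the higher of the pair in each. The ratio was 0.237, 0.0928 and 0.103 in the medial and 0.274, 0.270 and 0.0405 in the ventricular libraries, where Olig2 was the higher. The medial and lateral ratios did not overlap, with an exact two-sided permutation p of 0.1, the smallest that 3 libraries against 3 can give. This ratio was chosen after its values were seen.

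Nkx2-2 encodes the homeobox factor of the most ventral neuronal progenitor domain. The gene (ENSMUSG00000027434.11) is on chromosome 2 from 147177546 to 147194243, minus strand. Medial replicates held 54.0, 49.1 and 54.0 FPKM of Nkx2-2, ventricular replicates 26.9, 10.4 and 23.9, and lateral replicates 2.93, 5.95 and 2.90. The medial libraries were the highest without overlap and lay close together, at 52.4 ± 2.86 FPKM (SD, n = 3). Nkx2-2 thus had its peak in the zone where Dbx1 and Olig2 were intermediate.

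The medial minus lateral difference of Nkx2-2 was 3.49 ± 0.36 (limma adjusted p = 0.00181), and it passed in all 20 alternatives (7.23e-06 to 0.0129). The ventricular minus medial difference was -1.42 ± 0.36 and did not pass (adjusted p = 0.33), with a range over the alternatives of 0.0168, with array weights, to 0.702. Antisense genes overlap this locus, and the labels do not say whether strand was used in counting. 6430503K07Rik, which overlaps 984 bases of Nkx2-2, was 11.1 FPKM in medial replicate 3 and at most 3.41 FPKM in the other 8 libraries.

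Nkx6-1 and Nkx6-2 are homeobox factors of the ventral progenitor domains that act together in motor neuron and V2 interneuron formation. Nkx6-1 (ENSMUSG00000035187.10, chromosome 5 from 101658139 to 101664996, minus strand) was 1.14, 1.72 and 1.09 FPKM in the medial, 0.353, 0.890 and 0 in the ventricular and 0.0862, 0.0833 and 0.196 in the lateral libraries. The medial libraries were above all others. It entered the test only because exactly these 3 libraries reached 1 FPKM, so a medial excess was a condition of its being tested. In ventricular replicate 3 a single fragment would read 1.22 FPKM, inside the medial range, so its 0 is a coarse value.

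For Nkx6-1 the medial minus lateral difference was 1.03 ± 0.32 (limma adjusted p = 0.108) and the ventricular minus medial difference was -0.75 ± 0.32 (adjusted p = 0.409). Because the gene was tested only through the libraries in which it was high, its calls under other settings are not counted as results.

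Nkx6-2 (ENSMUSG00000041309.17, chromosome 7 from 139579376 to 139582797, minus strand) was 3.28, 4.89 and 1.53 FPKM in the medial, 0.871, 2.37 and 6.34 in the ventricular and 0.477, 0.154 and 1.09 in the lateral libraries. The medial and lateral libraries did not overlap, whereas the ventricular ones spanned the medial range. The highest ventricular value, in replicate 3, rested on about 3 fragments (3.15) and medial replicate 3 on fewer than 2 (1.57). Its medial minus lateral difference of 1.39 ± 0.52 did not pass (limma adjusted p = 0.175), but it did with both shallow libraries left out (1.72, adjusted p = 0.0228) and with array weights (0.00292). The ventricular minus medial difference was -0.15 ± 0.52 (adjusted p = 0.922), and it was -1.25 at the lowest of the alternatives, 1 of which passed (array weights, 0.0194).

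Pax6 encodes a paired and homeobox factor of intermediate and dorsal progenitors that is also kept in some forebrain neurons. The gene (ENSMUSG00000027168.21) is on chromosome 2 from 105668900 to 105697364, plus strand. Ventricular replicates held 15.2, 24.1 and 30.6 FPKM of Pax6, medial ones 37.0, 9.90 and 19.9, and lateral ones 46.1, 34.6 and 5.61. All 3 zones overlapped, and lateral replicates held both the highest and the lowest value of all 9. The differences were 0.19 ± 0.70 for ventricular minus medial (limma adjusted p = 0.928) and -0.12 ± 0.70 for medial minus lateral (adjusted p = 0.947), and neither passed in any of the 20 alternatives.

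The spread of Pax6 is too wide to show that its level was equal in the zones. Summed over 9 markers of the neighbouring telencephalon and thalamus, the level was 41.4, 5.84 and 61.9 FPKM in lateral replicates 1, 2 and 3, where Pax6 was 46.1, 34.6 and 5.61. Ventricular libraries had a sum of 31.7 to 43.2 FPKM and medial ones 25.7 to 46.9, and Emx1 was listed at 0 in every medial and lateral library. Whether neighbouring tissue plays a part in the Pax6 spread was not tested. The overlapping antisense gene Pax6os1 was at most 1.55 FPKM.

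Between the ventricular and medial mantle zones 0 of 14004 genes passed limma at an adjusted p of 0.05 (0.00%). Of the 14004, 1661 had an unadjusted p under 0.05 (11.9%), among them Dbx1, Olig2, Nkx2-2 and Nkx6-1 of the 7 factors. Nkx6-1 was tested only through its medial libraries, so it is not counted as a result. Between the medial and lateral mantle zones 577 of 14004 passed (4.12%), against 3 of the 7 factors. Of the 577, 501 were higher medially and 76 lower, a split that became 527 and 264 after quantile normalization, which shifted the median of all genes by -0.11 on the log2 scale. Between the ventricular and lateral zones 2750 passed (19.6%), which is background for the gene lists below and is not read for the 7 factors. The values of these factors in that contrast were log2 differences of 6.82 for Dbx1, 4.42 for Olig2, 2.07 for Nkx2-2, 1.23 for Nkx6-2, 1.08 for Olig1, 0.29 for Nkx6-1 and 0.07 for Pax6. Lack of overlap was common among all tested genes, in either direction. It was seen in 14.7% between the ventricular and medial, 40.4% between the medial and lateral and 45.1% between the ventricular and lateral zones. These shares apply wherever the FPKM of a gene is said not to overlap.

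**Figure D2:**
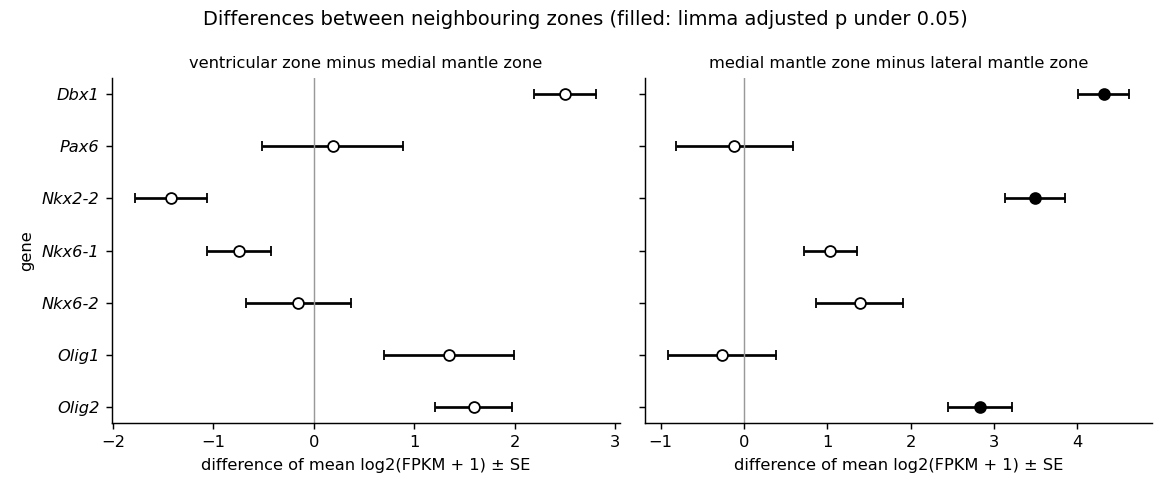
Difference of mean log2(FPKM + 1) with its SE (limma, 9 libraries) for each factor, ventricular minus medial on the left and medial minus lateral on the right, with filled points for adjusted p under 0.05. Dbx1, Nkx2-2 and Olig2 are filled on the right at 4.32, 3.49 and 2.83, and no point is filled on the left, where Dbx1 (2.50) and Nkx2-2 (-1.42) lie on opposite sides of 0.

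Progenitor markers fell from the medial to the lateral zone together with Dbx1, Nkx2-2 and Olig2. All 10 on the list passed, with a median log2 difference of 3.12 against 0.10 over all genes. Red cell markers differed too, with 5 of 6 tested genes higher medially and a summed level of 1589 to 2972 against 318 to 685 FPKM for the 8 genes of the list, of which Gata1 was listed at 0 in the lateral zone. The part of red cells in these differences was not tested. Taken relative to the mean log2(FPKM + 1) of the 10 progenitor markers, the medial minus lateral difference was 0.46 for Nkx2-2 and -0.20 for Olig2, and the zones overlapped for both (exact two-sided permutation p = 0.4 and 0.9). For Dbx1 it was 1.28, with all 3 medial libraries above the lateral ones (exact p = 0.1, the smallest possible). Pax6, Nkx6-1, Nkx6-2 and Olig1 went the other way, at -3.151, -1.998, -1.644 and -3.296. The marker mean itself was 5.47 to 5.78 in the medial and 2.21 to 2.78 in the lateral libraries. Medial Nkx6-1, Nkx6-2 and Olig1 were too low to fall that far, so their direction on this scale was fixed beforehand and is no result. In FPKM, Nkx6-1 and Nkx6-2 were higher medially, with ratios of means of 10.8 and 5.65. For each of these factors all 3 medial libraries lay below the lateral ones, which for Pax6 gave an exact two-sided permutation p of 0.1. A gene at the same level in both zones would also lie lower medially on this scale. No share of all genes without overlap was computed on it. This scale was chosen after the values were seen. Lateral Dbx1 and Nkx6-1 are near 0, so their values there depend on the pseudocount.

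Between the ventricular and medial zones 0 of the 10 progenitor markers passed, with a median log2 difference of 0.69 against -0.05 over all genes. Ventricular replicate 2 had a progenitor marker sum of 1000 FPKM, within the medial range of 962 to 1122, and the other 2 ventricular libraries had 1779 and 2166. Dbx1 was 74.0 FPKM in that library and at most 23.0 in the medial ones. In the same library Nkx2-2 was 10.4 FPKM against at least 49.1 medially. Olig2 was 48.1 FPKM there, against at most 20.1. This describes 1 library and is no test.

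**Figure D3:**
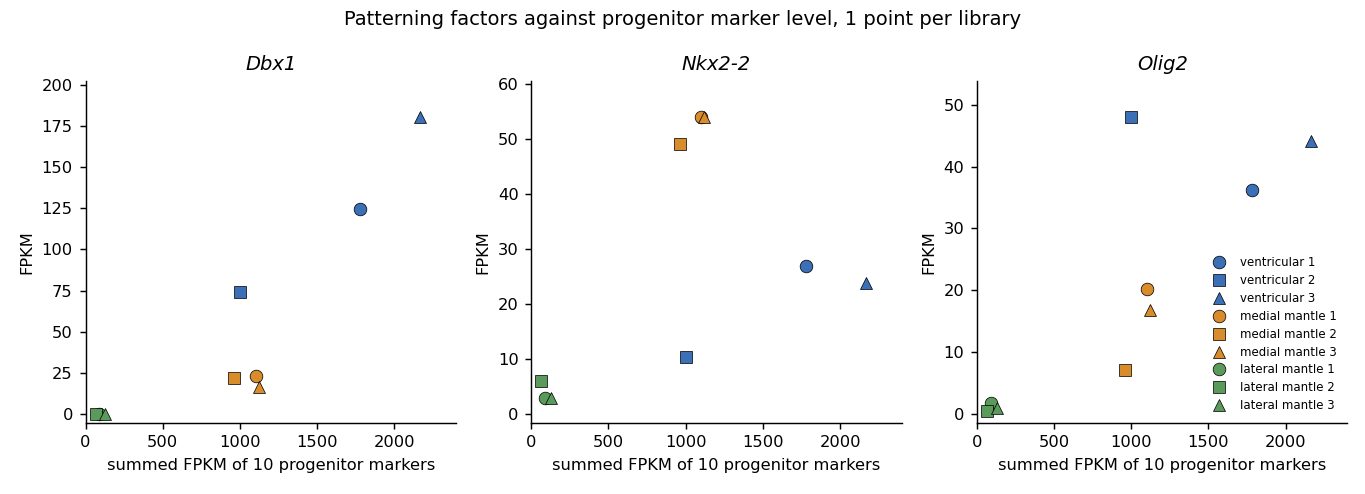
FPKM of Dbx1, Nkx2-2 and Olig2 against the summed FPKM of 10 progenitor markers, with 1 point per library, colour for zone and shape for replicate. At a marker sum near 1000 FPKM, ventricular replicate 2 lies above the medial libraries for Dbx1 and Olig2 and below them for Nkx2-2.

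On the scale relative to the progenitor markers, Dbx1 was 0.58, 0.69 and 0.51 in the ventricular and -0.88, -0.98 and -1.67 in the medial libraries. The ventricular libraries were all above the medial ones. Nkx2-2 went the other way, at -1.59, -2.04 and -2.36 in the ventricular and 0.32, 0.16 and 0.0025 in the medial libraries. For the other 5 factors the 2 zones overlapped on this scale. The exact two-sided permutation p was 0.1 for Dbx1 and for Nkx2-2, the smallest possible with 3 libraries against 3.

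The ratio of Dbx1 to Nkx2-2 restates these opposite patterns and was chosen after they were seen, so it is given with no test. It was 4.62, 7.14 and 7.57 in the ventricular libraries, 0.426, 0.441 and 0.301 in the medial and 0, 0.0117 and 0.0376 in the lateral ones. Dbx1 RNA was therefore the more abundant per length in every ventricular library and Nkx2-2 in every mantle library. On the log2(FPKM + 1) scale the ratio differed by 3.92 between the ventricular and medial zones, with SDs of 0.37 and 0.29. Olig2 divided by Nkx2-2 gave 1.34, 4.64 and 1.85 in the ventricular and 0.373, 0.143 and 0.312 in the medial libraries, again without overlap.

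Part of the pathway that patterns these domains was also lower laterally. Of 10 genes of the Hedgehog pathway, 4 were higher in the medial than in the lateral zone and none lower. Over all tested genes 3.58% were higher. The median log2 difference was 1.87, against 0.10 over all genes and 3.12 over the 10 progenitor markers. Whether the fall of these genes goes beyond that of progenitor content was not tested. Without ventricular replicate 3 the count was 8, and with both shallow libraries left out it was also 8. In these settings the genes higher medially among all those tested rose too, from 501 to 1328 and 1301. The Hedgehog count was 3 when any single medial or lateral library was left out. Gli1, the transcriptional activator that is itself a target of the pathway, was 5.50, 5.08 and 9.94 FPKM in the medial and 0.316, 0.0762 and 0 in the lateral libraries (log2 difference 2.75, limma adjusted p = 0.00255). The medial and lateral libraries of Gli1 did not overlap.

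Ptch1, the receptor for the ligand, was 45.0, 41.2 and 48.3 FPKM medially and 11.5, 10.8 and 10.5 laterally (log2 difference 1.94, limma adjusted p = 0.00261), and Smo, the transducer that Ptch1 holds in check, also passed (2.29, adjusted p = 0.00436). Gli1, Ptch1 and Smo passed in all 20 alternatives. Gli3, largely a repressor of targets, was the other to pass (1.69, adjusted p = 0.0219) and was lost when any single medial or lateral library was left out (0.062 to 0.0899). The ligand Shh was 17.1, 17.7 and 7.57 FPKM medially and 1.91, 1.53 and 1.66 laterally and did not pass (2.40, adjusted p = 0.0754).

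Between the ventricular and medial zones 0 of the 10 Hedgehog genes passed, with a median log2 difference of 0.25 against -0.05 over all genes. Ptch1 averaged 48.6 ± 14.2 FPKM at the ventricle and 44.9 ± 3.56 medially (SD, n = 3; log2 difference 0.07, adjusted p = 0.913). Dbx1 was higher and Nkx2-2 lower in all 3 ventricular than in all 3 medial libraries, while the ranges of Ptch1 overlapped. Against the lateral zone, 9 of the 10 were higher in the ventricular zone, where 10.7% of all tested genes were higher. The count of 9 became 5 when lateral replicate 1 or 2 was left out.

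**Figure D4:**
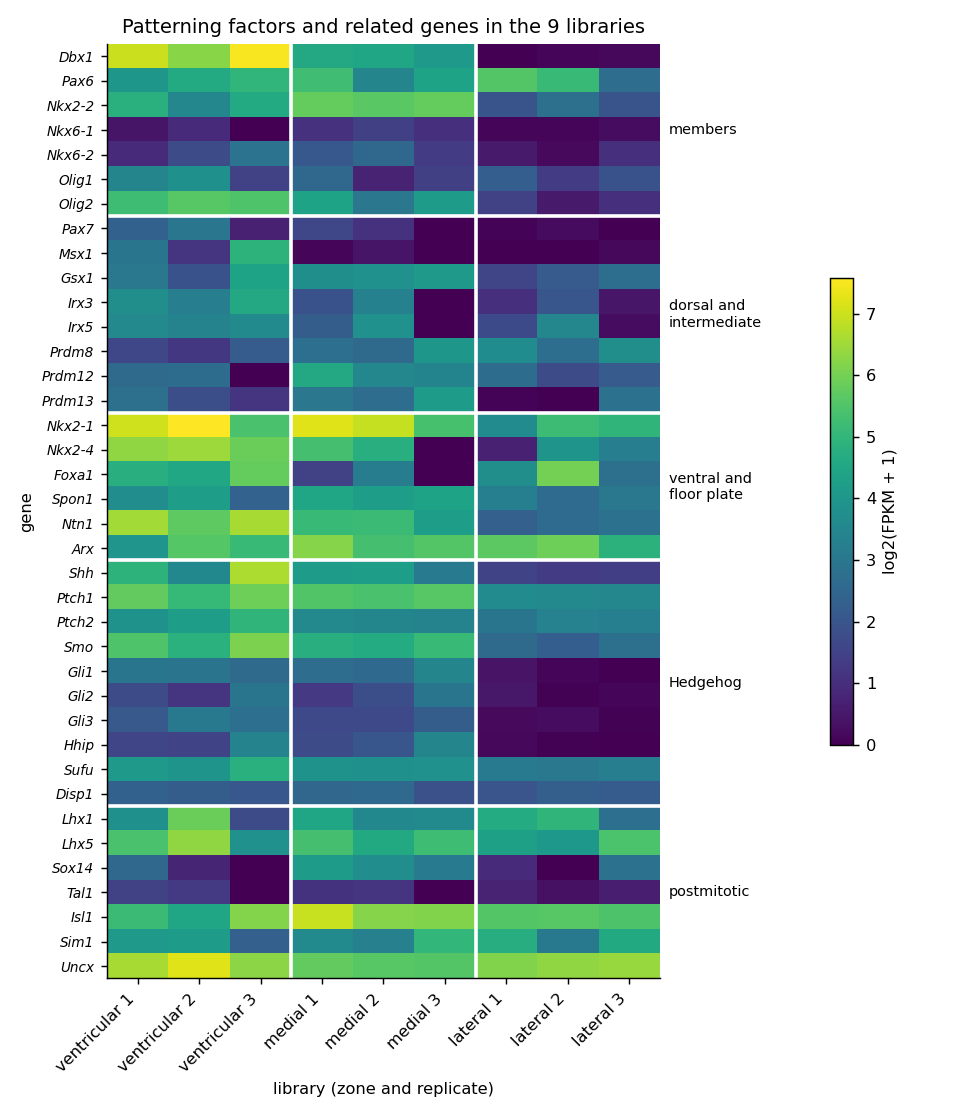
Level as log2(FPKM + 1), in colour, of the 7 factors (top block) and of the tested genes of 4 related lists, with libraries in columns by zone and replicate. The Hedgehog block darkens from the medial to the lateral libraries, as do Dbx1, Nkx2-2 and Olig2, with Disp1 about level. Dark cells for Irx3, Irx5, Nkx2-4 and Foxa1 in medial replicate 3 are values of 0 in that shallow library.

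Of 14 other dorsal and intermediate progenitor factors, 8 were tested, with 0 passing between the ventricular and medial or between the medial and lateral zones, and median log2 differences of 0.16 and 0.69. Between the medial and lateral zones 3 passed with both shallow libraries left out, 2 without ventricular replicate 3 and 1 without ventricular replicate 2 or lateral replicate 3, and 1 passed between the ventricular and medial zones without ventricular replicate 2. Dbx2, the paralog of Dbx1, was at most 0.294 FPKM in any library, against 124 FPKM of Dbx1 in the same one. Gsx1, a factor of intermediate progenitors, was 12.6, 13.3 and 16.2 FPKM in the medial and 1.98, 3.49 and 5.63 in the lateral libraries, without overlap (log2 difference 1.75, limma adjusted p = 0.117). Against the lateral zone, 3 were higher in the ventricular zone (Msx1, Irx3 and Pax7) and 1 lower (Prdm8). The count of 4 was 0 without ventricular replicate 1 or lateral replicate 1 or 3, 1 without lateral replicate 2 and 2 without medial replicate 1.

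Among 8 ventral progenitor and floor plate genes, 6 were tested. Ntn1, which encodes the guidance protein netrin 1, was the only 1 of these to pass between the medial and lateral zones, at 34.3, 34.9 and 17.8 against 3.98, 5.26 and 6.31 FPKM (log2 difference 2.24, limma adjusted p = 0.00621), and 3 passed with both shallow libraries left out or without ventricular replicate 3. Nkx2-1, the factor that gives the ventral forebrain its identity, was 146, 119 and 40.2 FPKM medially and 11.7, 35.9 and 30.3 laterally and did not pass (1.88, adjusted p = 0.146). Foxa2, of the floor plate, was listed at 0 in 6 of the 9 libraries and was at most 1.88 FPKM. That value was in ventricular replicate 3, where 1 fragment on a 2 kb gene reads 1.92 FPKM.

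Of 20 postmitotic factors that mark the neurons these domains form in the spinal cord, 13 did not reach the level needed for the test, among them Evx1 of V0 neurons, at most 0.0497 FPKM, and Mnx1 of motor neurons, listed at 0 in every library. Of the 7 tested, 0 passed in any of the 3 contrasts. Between the medial and lateral zones 2 passed without ventricular replicate 3, 1 without ventricular replicate 2 and 1 with both shallow libraries left out. With both left out 2 passed between the ventricular and lateral zones, and without ventricular replicate 2 the ventricular and medial zones differed in 1. Isl1, found in several hypothalamic neuron types, was 122, 73.2 and 69.7 FPKM in the medial and 45.6, 47.8 and 43.0 in the lateral libraries, without overlap (log2 difference 0.90, limma adjusted p = 0.215). Uncx was 49.1 ± 3.88 FPKM medially and 77.5 ± 6.96 laterally (adjusted p = 0.145).

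Of 11 oligodendrocyte lineage genes, 8 were tested, and 0 passed between the ventricular and medial or the medial and lateral zones, with median log2 differences of -0.05 and -0.15. Between the medial and lateral zones 1 passed without ventricular replicate 3. Against the lateral zone 1 was lower at the ventricle, Mbp of myelin (log2 difference -1.16, limma adjusted p = 0.0246). That count was 0 without ventricular replicate 1 or any single lateral replicate and 3 without ventricular replicate 2. Sox10, which defines the lineage, was at most 0.398 FPKM in any library, and Pdgfra, the receptor on its precursors, at most 1.18 FPKM. Of 6 feeding peptides, 4 were tested and 0 passed in the contrasts with the medial zone. Pmch encodes the peptide MCH of lateral hypothalamic neurons, and it stood at 21.2, 57.3 and 56.1 FPKM laterally and 7.31, 12.7 and 0 medially (log2 difference -3.12, limma adjusted p = 0.0971). The ventricular replicates held 0, 2.58 and 0 FPKM, below all lateral ones (log2 difference -4.78, limma adjusted p = 0.00883), a call that held in all 20 alternatives.

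Among 9679 genes with at least 5 FPKM in a zone, Pearson's r of log2(FPKM + 1) over the 9 libraries was taken as likeness. It is a description, and libraries of a zone share their tissue while 2 are shallow. The genes most like Dbx1 were Lamb2, for a laminin chain of basement membranes (r = 0.993), Nhlh1, a bHLH factor of newly formed neurons (0.992), and Prom1, for a membrane protein of progenitors (0.991). Lamb2 stood at 18.7, 11.8 and 21.0 FPKM at the ventricle, 8.75, 7.80 and 4.78 medially and 0.708, 0.488 and 0.882 laterally. As with Dbx1, ventricular replicate 3 was the highest and replicate 2 the lowest of its zone.

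Olig2 was most like Acadl (0.983), Neurod6 (0.973) and Fbln1 (0.972), and among the 7 factors its r with Dbx1 was 0.963. Nkx2-2 was most like Taf6 (0.952), Enah (0.944) and Thsd4 (0.943). Thsd4 was 10.4, 11.8 and 6.46 FPKM in the medial and 0.534, 0.287 and 0.497 in the lateral libraries, while the mean of Taf6 was 48.2 FPKM medially and 33.3 laterally.

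Nkx6-1 was most like Gsk3b (0.966), Slc18a2 (0.940) and Trp53i11 (0.931). Slc18a2, the vesicular monoamine transporter, was 12.8, 20.3 and 18.2 FPKM medially, above the 5.68, 7.78 and 3.94 of the ventricular libraries. Nkx6-2 was most like Txndc12 (0.975), Zswim4 (0.967) and Mxra7 (0.962). Pax6 was most like Pou6f1 (0.904), Tmem208 (0.873) and Tmem256 (0.870), and Olig1 like Nxph4 (0.937), Emx2 (0.882) and Rab23 (0.815). Pax6 had an r of at most 0.16 with any other of the 7 factors, and Olig1 of 0.479 with its neighbour Olig2.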

How the data were processed

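RNA was measured in 9 libraries from 3 zones of the hypothalamus. The authors deposited FPKM values, 1 per gene and library. Per the submitters' processing notes, reads were aligned with Bowtie2 2.1.0 to mm10, and the FPKM program and annotation are not given in the sources used. From 38370 rows, 42 exact copies and 133 rows repeating a symbol were dropped, keeping the highest mean.

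The scale was log2(FPKM + 1), on which changes of low genes are understated, for 14004 genes that reached 1 FPKM in 3 or more libraries. The model, in limma 3.58.1 (R 4.3.3), had a mean for each zone and used all 9 libraries; eBayes was run with trend. Two-sided p-values were adjusted by Benjamini-Hochberg over every tested gene of a comparison (threshold 0.05). No count test was used.

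Depth was estimated from 2841 single-transcript genes of 1500 bp or longer, whose most frequent low FPKM times length was taken as 1 fragment. Fragments behind a value use the longest GENCODE M21 transcript and are approximate. Gene positions are from GENCODE M21 (GRCm38).

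The genes, 6 pathway lists and 8 marker lists were chosen with earlier results of these data known. Named genes were all 7 factors, and per comparison and pathway list, at most 4 passing genes ranked by change and at most 2 other genes ranked by level. For each factor the 3 genes with the highest Pearson r and at least 5 FPKM in a zone were added, leaving out predicted genes. Dbx2, Foxa2, Evx1, Mnx1, Sox10 and Pdgfra, and markers named beside a result, were chosen after their values were seen. Of the neuron markers, Tubb3 was not analysed here. The alternatives were the pseudocount (0.1 and 0.5), the low-value filter, scaling by quantiles or a trimmed mean, the trend, array weights (whose iteration stopped before convergence), a fit to only the zones compared, the replicate number as a block, both shallow libraries left out, and each library left out.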

Additional observations from a re-analysis of the deposited data

How the results depend on the processing

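The calls of Dbx1, Nkx2-2 and Olig2 between the medial and lateral zones held in all 20 alternatives. These settings reuse the same libraries, and the lateral ones were part of the contrast on which Dbx1 was chosen. Between the medial and lateral zones the count of factors called was 3. It rose to 5 with array weights and with both shallow libraries left out, and was 3 to 4 when single libraries were left out. Each count above 3 includes Nkx6-1, which entered the test only through its medial libraries. Between the ventricular and medial zones the count was 0. It was 1 with quantile normalization, 1 with trimmed mean scaling and 6 with array weights. When single libraries were left out it was 0 to 1, with the 1 reached without ventricular replicate 2. The count of 6 also includes Nkx6-1, with the same limit. Over all genes, the ventricular and medial zones differed in 0 genes, 9 with quantile normalization, 3 with trimmed mean scaling, 2761 with array weights and 0 to 571 when single libraries were left out. The medial and lateral zones differed in 577 genes, 3700 with array weights, 2027 with only these zones in the fit, 1666 with both shallow libraries left out and 207 to 1760 when single libraries were left out. The ventricular and lateral zones differed in 2750 genes, 6800 with array weights, 1684 with only these zones in the fit and 959 to 3958 when single libraries were left out. The cause of these shifts was not tested. Array weights gave ventricular replicate 3 a weight of 0.108 and medial replicate 3 a weight of 0.23, against 0.473 to 3.67 in the other libraries.

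With the replicate number as a block the counts of factors were 3 and 0, and over all genes 703, 0 and 2901 for the medial against lateral, ventricular against medial and ventricular against lateral zones. The block changed no call of the 7 factors. Deviations of same-numbered libraries correlated between -0.0984 and 0.249, above 0.1 in 4 of 9 pairs. Only ventricular replicate 1 with lateral replicate 1 was negative among them. Different-numbered libraries correlated between -0.247 and 0.231. The labels do not say whether the numbers pair the zones, so the main fit did not use them. Depth limits Nkx6-1, Nkx6-2 and Olig1 most, since 1 fragment on a 2 kb gene was worth 1.92 FPKM in ventricular replicate 3 and 0.931 FPKM in medial replicate 3.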
